A study of Mus musculus with 400 samples.

Results

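Heterotrimeric G proteins and the RGS proteins that switch them off were followed across classes of sensory neurons: 40 genes, given as a list of 12 alpha, 4 beta and 9 gamma subunits and 15 regulators of G protein signalling. All 40 were found among 24754 measured genes. The cells were single tdTomato+ cells sorted from cervical (C1-C8) dorsal root ganglia (DRG) of 6 mice aged 6 to 12 weeks, all naive and carrying Nav1.8-Cre and R26CAG-floxStop-tdTomato (strain Nav1.8-Cre.Ai14). In these mice the promoter of the sodium channel Nav1.8 (Scn10a) drives Cre, which removes a stop before tdTomato, so the sort holds cells in which that promoter is or was active, and neurons that never used it are outside the sort. Each cell was its own library, in 4 runs: run 1 holds the mice Blue and Red, run 2 holds Control, run 3 holds the pair Control1 and Control2, and run 4 holds Control6. All mice were of 1 genotype and untreated, so the comparisons are between classes of cells within mice.

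Classes were set by a gate on genes that are not among the 40: Mrgprd of at least 200 CPM (counts scaled to 1000000 per cell), Mrgpra3 of at least 50, Sst or Nppb of at least 100, Th of at least 100, Calca of at least 2000 together with Tac1 of at least 1000, and Nefh of at least 500. As background, Mrgprd and Mrgpra3 encode receptors of nonpeptidergic nociceptors and of itch neurons, Sst and Nppb peptides of another itch population, Th marks C-fibre low-threshold mechanoreceptors, Calca and Tac1 encode neuropeptides of peptidergic nociceptors, and Nefh is a neurofilament of large myelinated neurons. Of 371 cells with at least 500 detected genes, 329 passed exactly 1 gate: 44 Mrgpra3, 45 Sst/Nppb, 34 Th, 81 Calca/Tac1 and 17 Nefh cells, and Mrgprd cells numbering 31, 34, 15, 8, 9 and 11 in Blue, Red, Control, Control1, Control2 and Control6. Another 14 passed 2 gates and 28 passed none. A class entered the tests in each mouse where it had at least 3 cells: Mrgprd and Calca/Tac1 in 6 mice, Sst/Nppb in 4 (Blue, Red, Control, Control1), and Mrgpra3 and Th in 2 (Blue, Red). The cells of mice with fewer, among them 8 Mrgpra3 and 6 Th cells, are counted in the cell totals and stay outside the tests. Nefh cells reached that number in 1 mouse, with 13 cells, and were not tested.

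A G protein-coupled receptor loads GTP onto the alpha subunit of a trimer, and the alpha subunit and the beta-gamma pair then act on separate targets. Gs raises cyclic AMP, Gi lowers it, Gi and Go free beta-gamma, and Gq drives phospholipase C beta. RGS proteins speed up the hydrolysis of GTP by the alpha subunit and so shorten the signal. In nociceptors, opioid, cannabinoid and GABA-B receptors signal through Gi and Go, while many inflammatory mediators and itch receptors signal through Gs and Gq.

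The depth of the kept cells had a median of 30413 recovered counts and a range of 908 to 324614. Class medians were 46053 for Mrgprd, 39290 for Mrgpra3, 16985 for Sst/Nppb, 30921 for Th, 19566 for Calca/Tac1 and 84076 for Nefh cells. Lists of marker genes that the gates did not use had their highest sum in their own class, except the Mrgpra3 list. The 5 Mrgprd markers summed to 2837 CPM in Mrgprd cells against 24.9 to 554 CPM in the other classes. The 5 Calca/Tac1 markers summed to 2872 CPM in Calca/Tac1 cells against 31.3 to 433 CPM. Of the Mrgpra3 markers, Mrgprx1, Mrgprb4 and Mrgprb5 were detected in Mrgpra3 cells and all at 0 in Sst/Nppb, Th and Calca/Tac1 cells. Mrgprb5 was also detected in Mrgprd cells and Mrgprx1 in Nefh cells. Summed with F2rl2, the list had 211 CPM in Mrgpra3 cells and 223 CPM in Sst/Nppb cells. The same list had 142 CPM in Mrgprd, 7.80 CPM in Th, 143 CPM in Calca/Tac1 and 58.6 CPM in Nefh cells. Satellite glial markers (7 of 7 measured) summed to 409 CPM in Mrgprd, 836 in Mrgpra3, 501 in Sst/Nppb, 835 in Th, 1293 in Calca/Tac1 and 4298 in Nefh cells. Schwann cell markers (7 of 7 measured) summed to 131 CPM in Mrgprd, 85.4 in Mrgpra3, 83.3 in Sst/Nppb and 469 in Th cells. They summed to 189 CPM in Calca/Tac1 and 912 CPM in Nefh cells. The limit on glial signal used below is set on the satellite list only, and the part of Schwann cell RNA was not tested. The 4 cells just inside the Th gate (100 to 200 CPM) averaged 888 CPM of Rgs5, and the 8 cells just outside it (50 to 100 CPM) averaged 88.8 CPM. The other gates examined showed no such drop. At the Mrgpra3 gate the 1 cell just inside had 743 CPM of Rgs5 and the 1 cell just outside 689 CPM. For Gnaq at the Mrgprd gate, 10 cells just inside averaged 1151 CPM and the 1 cell just outside had 2835 CPM. For Gnao1 at the Nefh gate, 12 cells just inside averaged 1334 CPM and 26 just outside 2035 CPM.

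Of the tested genes 24 of 31 differed between classes, with the smallest adjusted p for the regulators Rgs4 (5.97e-11) and Rgs5 (6.03e-10), the alpha subunits Gnal (4.61e-09), Gnao1 (5.42e-09) and Gnaq (1.99e-08), and the gamma subunit Gng2 (5.09e-09) (limma). Of the 40, 31 passed the filter of a mean of at least 10 CPM over the mice and classes. For 24 of these 31 the moderated F test over the 5 classes gave an adjusted p under 0.05 (limma on log2(mean CPM + 5) per mouse and class, mouse as a block, Benjamini-Hochberg over all 9139 genes tested). The same test called 25.5% of all genes. The 31 genes were expressed at a median of 125.3 CPM, against 43.4 CPM over all genes tested, so the comparison is with genes of lower level. The p-values are conditional on the gates. The genes with the widest range of class means on the log2(CPM + 5) scale were Rgs5 (7.16), Gna14 (5.80), Rgs8 (5.22), Rgs7 (5.08), Rgs4 (4.36), Rgs10 (4.33), Rgs2 (3.80), Gng12 (3.62), Gnb4 (3.51), Rgs12 (3.26), Gng4 (2.77) and Rgs17 (2.67). The 7 genes with no call were Gna11, Gnai3, Gnaz, Gnb2, Gnb5, Gng10 and Rgs19, whose class means differed by 0.21 (Gnaz) to 1.46 (Rgs19) on that scale.

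**Figure D1:**
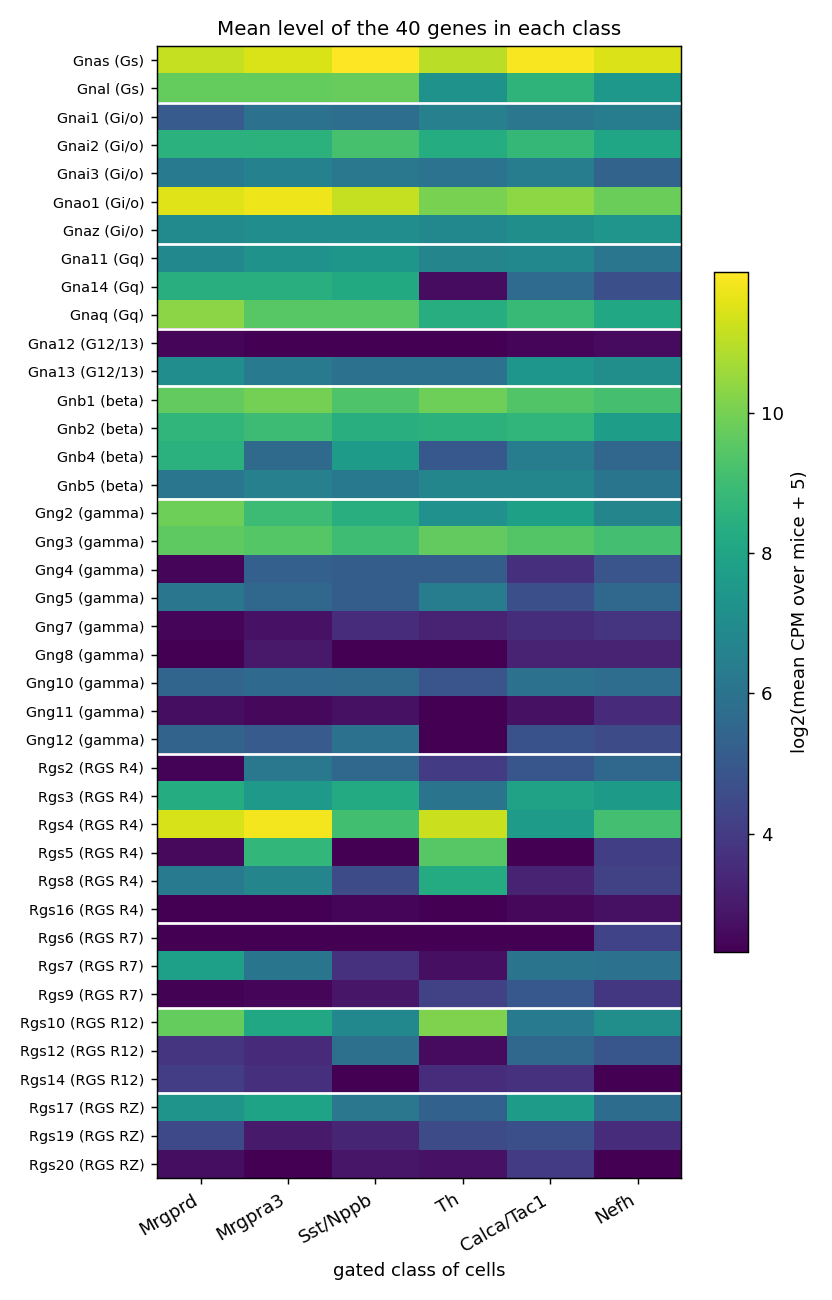
Mean level of each of the 40 genes (rows, grouped by family) in the 6 gated classes (columns), as log2(mean CPM over mice + 5). Gnas and Gnao1 are bright in every class, Rgs4 is bright in Mrgprd, Mrgpra3 and Th cells, and Rgs5 is bright in Mrgpra3 and Th cells; the Nefh column is 1 mouse.

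The 9 genes left out by the filter were Gna12, Gng7, Gng8, Gng11, Rgs6, Rgs9, Rgs14, Rgs16 and Rgs20. Their highest class means were between 1.16 CPM (Gna12 in Nefh cells) and 26.7 CPM (Rgs9 in Calca/Tac1 cells). Rgs6, a regulator of Gi and Go of the R7 family, had no count in the 5 tested classes and 14.4 CPM in Nefh cells. Rgs16 did not exceed 1.80 CPM in any class. Of 14 further genes of the same families outside the 40, which include the transducins, Gna15 and Rgs1, Rgs13, Rgs18, Rgs21 and Rgs22, the highest class means were 37.01 CPM for Rgs11 in Nefh cells and 18.8 CPM for Gnb3 in Th cells.

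The direction of the calls differed by class when each class was set against the equal-weight mean of the other 4 tested classes. In Mrgprd cells 10 genes were higher and 5 lower; over all genes 6.78% were higher and 4.46% lower. In Mrgpra3 cells 5 were higher and 0 lower, against 1.43% and 0.832% of all genes. In Sst/Nppb cells 9 were higher and 6 lower, against 5.48% and 10.8% of all genes. In Th cells 4 were higher and 12 lower, against 4.15% and 4.46% of all genes. In Calca/Tac1 cells 4 were higher and 10 lower, against 7.01% and 5.31% of all genes. The median log2 difference of the 31 genes was 0.50 in Mrgprd, 0.17 in Mrgpra3, -0.01 in Sst/Nppb, -0.48 in Th and 0.06 in Calca/Tac1 cells, where the median of all genes was 0.11, -0.01, -0.14, 0.03 and 0.01. Rgs5 in Sst/Nppb cells and Gng12 in Th cells had no count. Setting them to the bound of 3 counts over the class could not move these medians, as both genes lay below the median before and after.

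**Figure D2:**
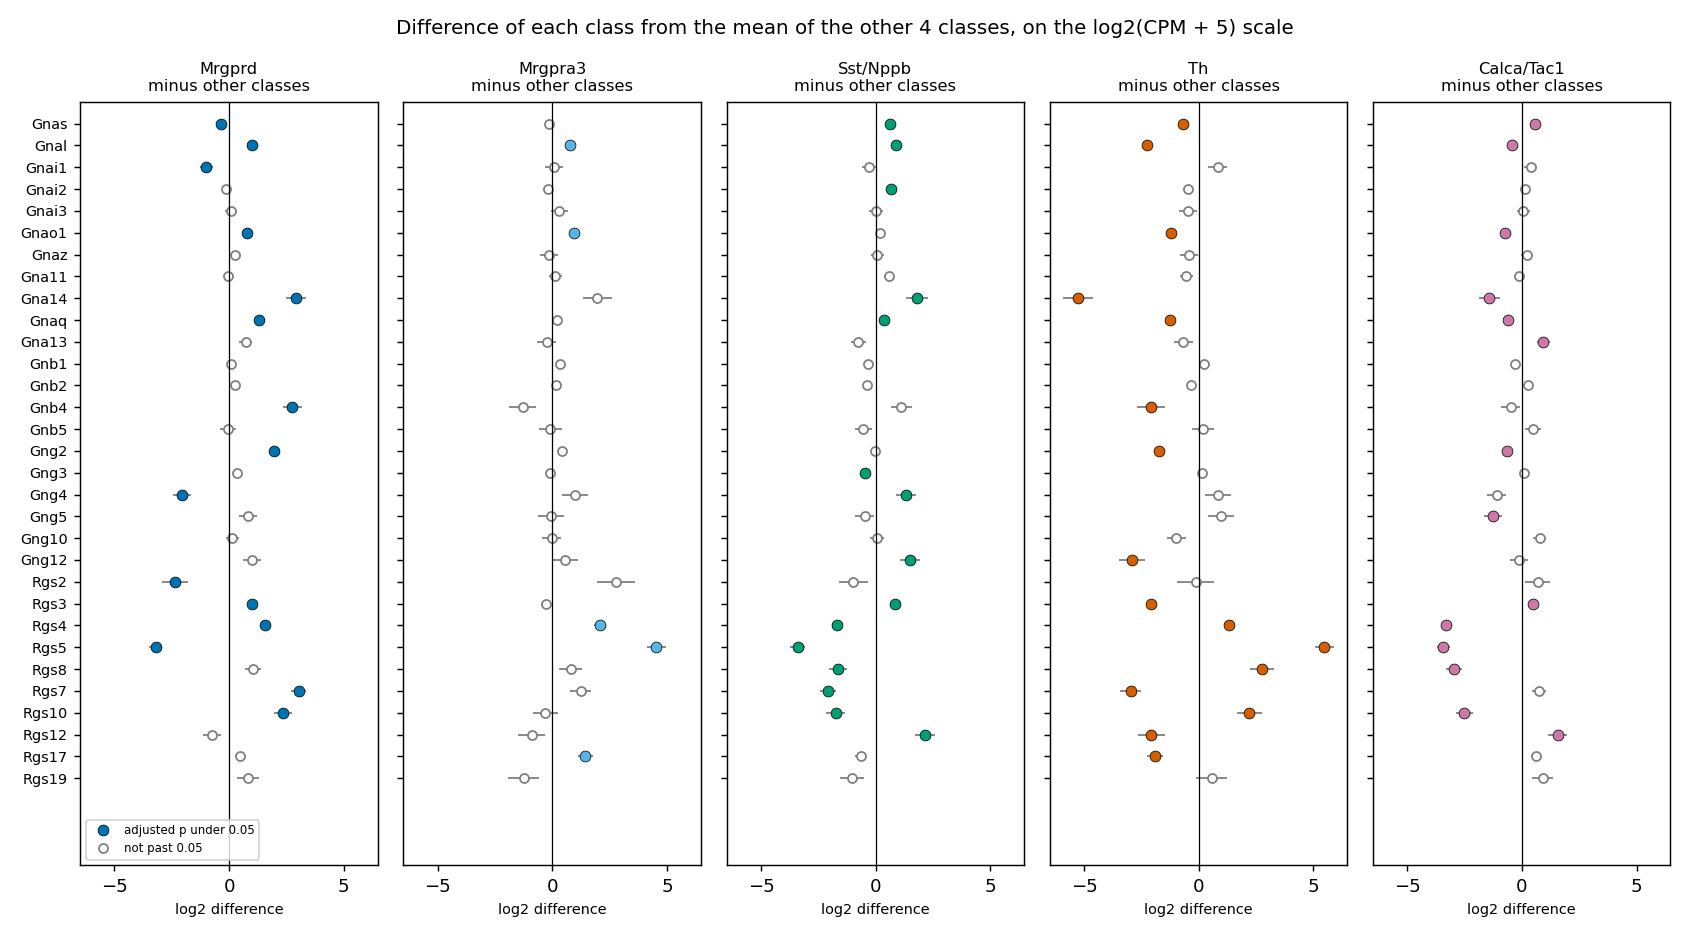
Log2 difference (x axis, log2(CPM + 5) scale) of each of the 31 tested genes (y axis) between a class and the mean of the other 4 classes, 1 panel per class; bars are 1 SE and filled points have an adjusted p under 0.05 (limma). Most filled points lie right of 0 for Mrgprd cells and left of 0 for Th cells.

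The mice Blue and Red hold every tested Mrgpra3 and Th value and all 5 classes. With run 1 alone, the calls kept their direction for 15 of 15 genes in Mrgprd, 5 of 5 in Mrgpra3, 15 of 15 in Sst/Nppb, 16 of 16 in Th and 14 of 14 in Calca/Tac1 cells. In runs 2 to 4 only Mrgprd, Sst/Nppb and Calca/Tac1 cells remained to be compared with each other. There 13 of 13 genes with a value had the same direction in Mrgprd cells (10 called), 11 of 13 in Sst/Nppb cells (1 called) and 12 of 13 in Calca/Tac1 cells (7 called). Without Blue or without Red, the genes called for any difference numbered 15 and 14, those called in Mrgprd cells 11 and 11, in Mrgpra3 cells 0 and 0, in Sst/Nppb cells 7 and 5, in Th cells 8 and 7, and in Calca/Tac1 cells 6 and 7; in Mrgpra3 and Th cells 1 mouse was then left, assumed to vary like the other classes. The share of all genes called with these subsets of mice is not given here. The counts of calls therefore cannot separate a change in the listed genes from lower power over all genes. Where a call below is said to need both mice, it did not pass without Blue and did not pass without Red.

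The end of the alpha subunit's coding sequence is shown for 6 genes, because its last residues touch the receptor and separate the families. The sequences are the last 9 codons and the stop codon of the principal GENCODE vM21 transcript, 5′ to 3′, with the fourth codon before the stop in capitals; 4 of the 5 Gi and Go genes have a cysteine codon there, the residue that pertussis toxin modifies, and Gnaz has none.
Gnao1: aacaatctccggggcTGCggcttgtactga
Gnai2: aacaacctgaaggacTGTggcctcttctga
Gnaz: aacaatctcaagtacATCggcctttgctga
Gnaq: ctgaacctgaaggagTACaatctggtctaa
Gna14: ctaaacctacgggagTTCaacttggtgtaa
Gnas: atgcatctccgccaaTACgagctgctctaa

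Gnao1, the Go alpha subunit, had the highest level per kilobase of the Gi/o genes in every class, and was high in Mrgprd and Mrgpra3 cells. It had 3457 and 3421 CPM in Mrgpra3 cells of Blue and Red. In Mrgprd cells its lowest, median and highest mouse had 2827, 2980 and 3028 CPM. Sst/Nppb cells had 2230, 2440, 2024 and 2398 CPM in Blue, Red, Control and Control1, while Th cells had 1089 and 1007 CPM and Calca/Tac1 cells between 957 and 1575 CPM. The Mrgpra3 values lay above those of every other class. The log2 difference was 0.94 ± 0.13 (SE) in Mrgpra3 cells (adjusted p = 0.000237, limma), 0.79 ± 0.09 in Mrgprd cells (3.82e-06), -1.20 ± 0.13 in Th cells (2.35e-06) and -0.73 ± 0.09 in Calca/Tac1 cells (8.96e-06). Each direction held in every mouse with a value, and the Mrgpra3 call needed both mice. In Sst/Nppb cells it was 0.20 ± 0.10, with an adjusted p of 0.188; it passed with run 1 alone and after median centring (0.00483 and 0.00719).

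The Gi subunits and Gnaz were each below Gnao1 per kilobase in every class. Gnai2, the Gi subunit of highest level per kilobase, had 476, 651, 545 and 629 CPM in Sst/Nppb cells of Blue, Red, Control and Control1, against class means of 312 to 432 CPM in the other 4 tested classes. Gnai2 rose by 0.68 ± 0.15 on the log2 scale (adjusted p = 0.00353, limma; 4 of 4 mice), and overlapped with the Calca/Tac1 values of 275 to 588 CPM. Without Red, or in runs 2 to 4, this rise did not pass. In the other classes Gnai2 differed by -0.48 to 0.13 and was not called. The Gnai2 difference in Th cells passed under 4 of 16 alternatives, among them run 1 alone (adjusted p = 0.000688, limma) and edgeR on recovered counts (0.000179). Gnai1 was lower in Mrgprd cells, at 18.5, 27.3 and 44.7 CPM in the lowest, median and highest mouse, against class means of 51.2 to 87.4 CPM elsewhere (log2 difference -0.997 ± 0.28, adjusted p = 0.021, limma; 6 of 6 mice), a call that needed both mice and was lost in runs 2 to 4 and with means of log values; in the other classes it differed by -0.27 to 0.82 and was not called. The Gnai1 difference in Th cells passed under 3 of 16 alternatives, among them run 1 alone (adjusted p = 0.00961, limma). That in Calca/Tac1 cells passed under 1 of 17, edgeR on recovered counts (0.0129). Gnai3 and Gnaz were not called, with class means of 58.7 to 89.5 CPM and of 109 to 135 CPM over the 5 tested classes.

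In the Gs family, Gnas and Gnal, the olfactory Gs-type subunit, were both high in Sst/Nppb and low in Th cells. Their called differences had opposite directions in Mrgprd cells, where Gnal was high, and in Calca/Tac1 cells, where Gnas was high. Gnas had 4443, 4303, 4456 and 3141 CPM in Sst/Nppb cells of Blue, Red, Control and Control1, a log2 difference of 0.64 ± 0.08 (adjusted p = 1.93e-05, limma; 4 of 4 mice). In Calca/Tac1 cells the lowest, median and highest mouse had 2812, 3940 and 4142 CPM (0.57 ± 0.08, adjusted p = 3e-05; 6 of 6 mice). Th cells had 2089 and 1978 CPM (-0.70 ± 0.11, adjusted p = 0.000267) and Mrgprd cells 2017 to 2477 CPM (-0.37 ± 0.08, adjusted p = 0.00245); both of these calls needed both mice. In Mrgpra3 cells Gnas differed by -0.15 (adjusted p = 1). In runs 2 to 4 the rises in Sst/Nppb and Calca/Tac1 cells were 0.39 and 0.39 and did not pass. The Gnas locus makes several transcripts, and gene-level values do not separate them. Gnal had 163 and 138 CPM in Th cells of Blue and Red, below all other tested classes, where mice ranged between 322 and 1027 CPM (log2 difference -2.25 ± 0.16, adjusted p = 2.08e-08, limma). It rose in Mrgprd (0.98 ± 0.11, adjusted p = 4.72e-06), Sst/Nppb (0.91 ± 0.12, 3.02e-05) and Mrgpra3 cells (0.77 ± 0.16, 0.0127), whose class means were 823 to 849 CPM. Calca/Tac1 cells had 383 CPM on average (-0.41 ± 0.11, 0.0182). The Mrgpra3 and Calca/Tac1 calls needed both mice and were lost with means of log values (adjusted p = 0.204 and 0.586), and the Sst/Nppb value in runs 2 to 4 was 0.23 with an adjusted p of 0.671.

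Of the Gq family, Gnaq was highest in Mrgprd cells. Gnaq, the widely used member, had 1176, 1286 and 1360 CPM in the lowest, median and highest mouse of Mrgprd cells, above the 316 to 819 CPM of all other tested mice and classes. The log2 difference was 1.29 ± 0.11 (adjusted p = 1.23e-07, limma; 6 of 6 mice) and was called under all 17 alternatives, between 1.19 and 1.47. In Th cells, with 323 and 320 CPM, it was -1.23 ± 0.16 (adjusted p = 2.49e-05), and in Calca/Tac1 cells, with 316 to 594 CPM, -0.63 ± 0.11 (0.000443). The Th call missed the threshold without Red (adjusted p = 0.0508) and the Calca/Tac1 call without Blue (0.0588) and with means of log values (0.164). In Sst/Nppb cells Gnaq was 0.36 ± 0.12 higher (adjusted p = 0.0468; 3 of 4 mice), with a value of -0.04 in runs 2 to 4; this call was lost under 7 of 17 alternatives, among them leaving out Blue, Red or Control1. In Mrgpra3 cells it differed by 0.20 (adjusted p = 1).

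Gna14 lies 48.3 kb from Gnaq on chromosome 19, on the same strand. It was high in Mrgpra3, Mrgprd and Sst/Nppb cells, lower in Calca/Tac1 cells and nearly absent in Th cells. It had 324 and 331 CPM in Mrgpra3 cells, 266, 344 and 360 CPM in the lowest, median and highest mouse of Mrgprd cells, and 325, 330, 200 and 296 CPM in Sst/Nppb cells of Blue, Red, Control and Control1. Calca/Tac1 cells had 0 to 83.8 CPM, with a count in 33 of 81 cells, and the 28 cells that met no gate averaged 75.8 CPM. In Th cells it was 0 in Blue and 2.34 CPM in Red, and the 34 Th cells of all 6 mice hold 1 count together. The mean of the other classes, 249 CPM, was 262 times the pooled Th level, with a counting interval of 47.1 to 10358 (exact Poisson, 95%). The difference in Th cells was called (adjusted p = 1.29e-05, limma) with a fitted log2 value of -5.26 ± 0.64 that depends on the pseudocount. Gna14 was higher in Mrgprd cells (2.91 ± 0.44, adjusted p = 0.000134; 6 of 6 mice) and Sst/Nppb cells (1.81 ± 0.49, 0.0146; 4 of 4 mice), the second of which needed both mice, was 0.67 in runs 2 to 4 and was lost at a pseudocount of 1 and without the filter. The difference in Mrgpra3 cells, 1.96 with an adjusted p of 0.156, did not pass; it passed under 5 of 16 alternatives, with run 1 alone at 2.43e-07. In Calca/Tac1 cells it was -1.42 ± 0.44 (adjusted p = 0.0422), which edgeR on recovered counts put at -0.15 with an adjusted p of 0.93. It was lost under 8 of 17 alternatives, among them when any 1 of Blue, Red, Control1, Control2 and Control6 was left out. Gna11 was not called, at 99.9 to 171 CPM. Of the G12/13 pair Gna13 was 0.94 ± 0.29 higher in Calca/Tac1 cells (39.7 to 327 CPM; adjusted p = 0.0371; 5 of 6 mice), and without cells of high glial signal the difference was 0.43, with an adjusted p of 0.306. This call was lost under 11 of 17 alternatives, among them leaving out any 1 mouse except Control6.

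**Figure D3:**
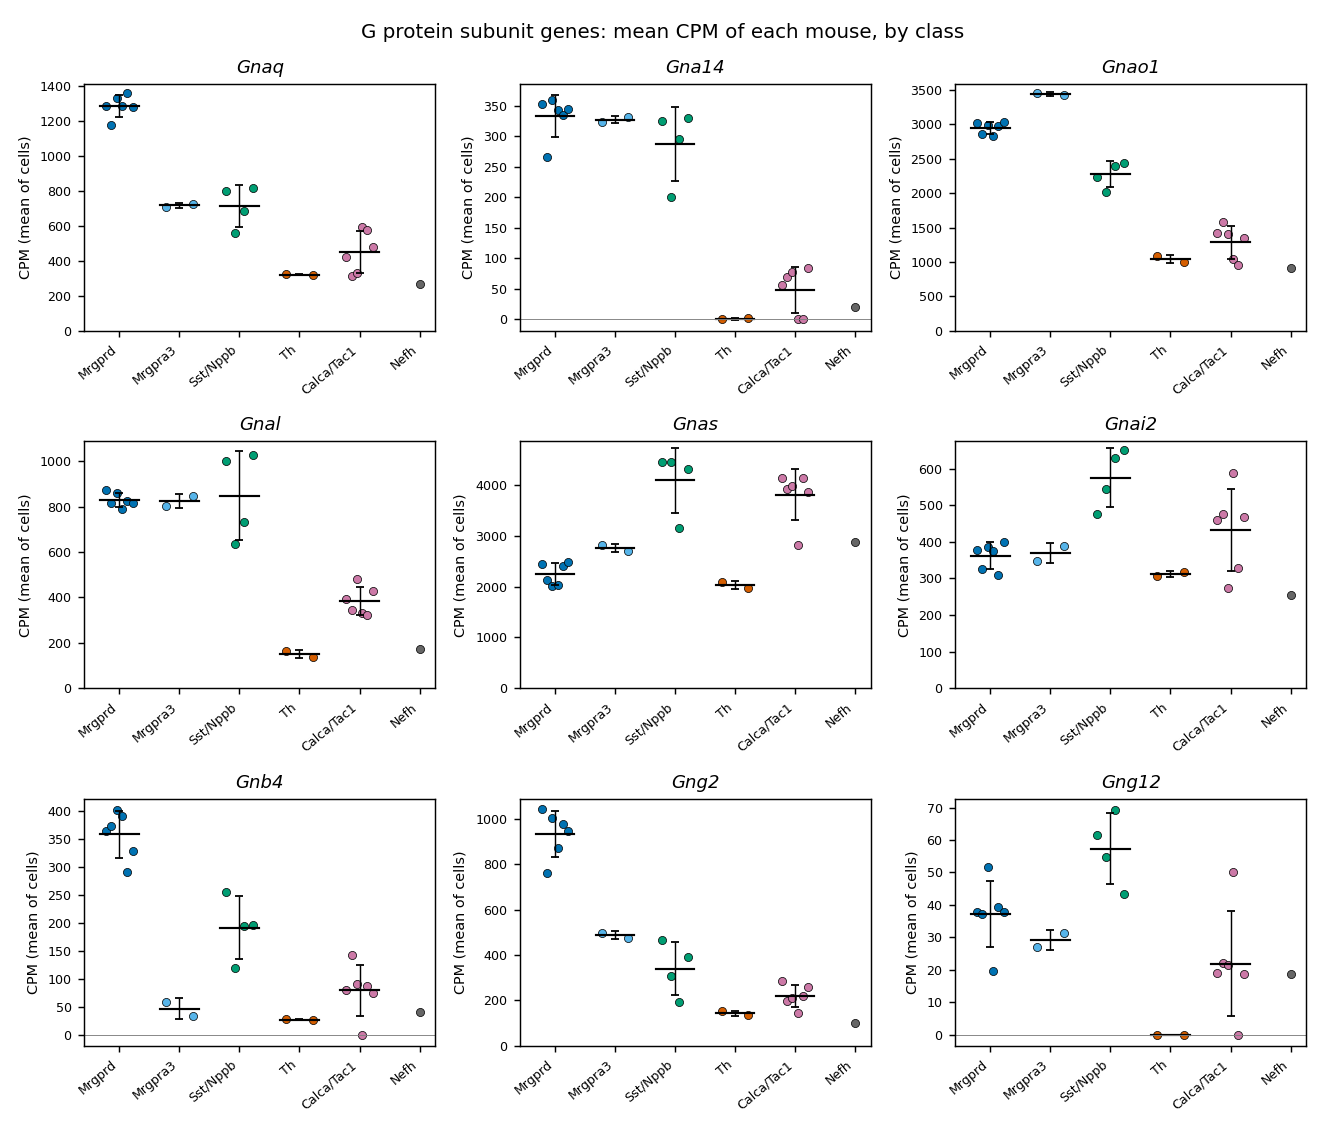
Mean CPM over cells (y axis, linear) of 9 subunit genes in each class (x axis), 1 point per mouse; bars are the mean and SD over mice, and Nefh is a single mouse. All 6 Mrgprd points of Gnaq, Gnb4 and Gng2 lie above the points of the other classes, and Gna14 and Gng12 lie at or near 0 in both Th mice.

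The balance between alpha families, as a share of the summed alpha subunit level per kilobase of annotated exon, differed in value from class to class. The Gq family made up 31.5% of it in Mrgprd cells, 23.1% in Mrgpra3, 21.5% in Sst/Nppb, 14.4% in Th, 13.8% in Calca/Tac1 and 11.1% in Nefh cells. The Gs family made up 26.1%, 29.99%, 39.3%, 36.5%, 45.2% and 46.1% in the same order. Gi and Go together varied less, between 37.9% in Calca/Tac1 and 47.4% in Th cells, and Gnao1 alone made up 25.3% in Mrgprd cells and 14.1% in Calca/Tac1 cells. The summed alpha level was 1053, 1069, 1123, 534, 828 and 590 CPM per kilobase in that order of classes. These shares were not tested, and they use the union of annotated exons as the length of a gene. That length is 11.2 kb for Gnas and Gnal and 11.1 kb for Gnao1, against 6.19 kb for Gnaq and 3.43 kb for Gna14. A longer length lowers the share of a gene, so the balance of Gs and Gq depends on this choice.

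**Figure D4:**
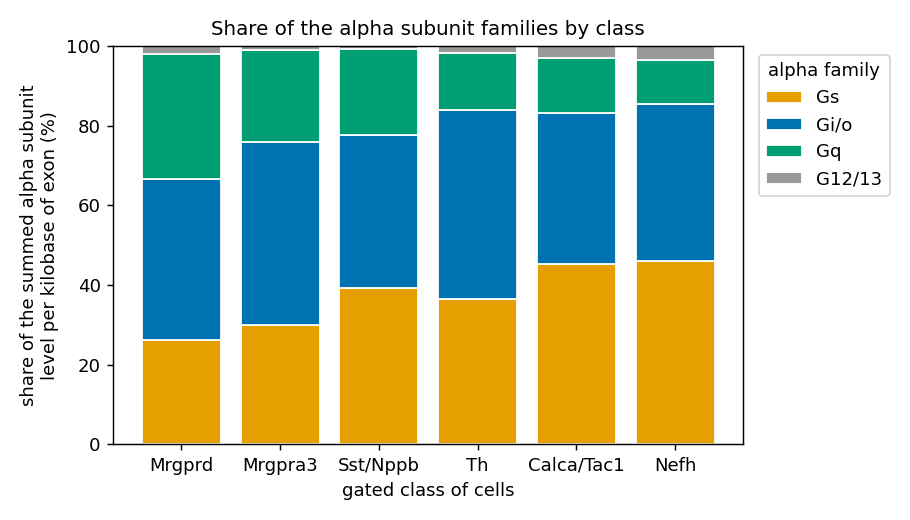
Share (y axis, percent) of the summed alpha subunit level per kilobase of exon that each alpha family takes, in the 6 classes (x axis); class means over mice, no error shown. The Gq part is 31.5% in Mrgprd cells and 13.8% in Calca/Tac1 cells, and the Gs part is largest in Calca/Tac1 and Nefh cells.

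Of the beta subunits, Gnb1 and Gnb2 were broadly even and Gnb4 was not. Gnb1 had the highest level per kilobase in every class (49.2% to 60.9% of the summed beta level), with class means between 645 and 1004 CPM in the tested classes. It passed the F test (adjusted p = 0.035, limma), and none of its single contrasts passed: the closest were Sst/Nppb cells (-0.35 ± 0.12, adjusted p = 0.0532) and Calca/Tac1 cells (-0.30 ± 0.11, 0.0792), which passed under 6 and 9 of 17 alternatives. In Mrgpra3 and Th cells Gnb1 passed under 3 and 2 of 16 alternatives. Gnb4 had 290, 368 and 401 CPM in the lowest, median and highest mouse of Mrgprd cells, above all other tested values, which lay between 0 and 256 CPM. Gnb4 differed by 2.76 ± 0.42 on the log2 scale (adjusted p = 0.000117, limma; 6 of 6 mice), between 2.10 and 3.22 over 17 alternatives. Th cells had 27.2 and 26.2 CPM (-2.08 ± 0.60, adjusted p = 0.036); this call was lost at a pseudocount of 1, without the filter, without the mouse block and without Blue, Red or Control1. Gnb5, the beta subunit that pairs with R7 regulators, was not called, at 64.3 to 102.7 CPM.

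Among gamma subunits the contrast was between Gng2 and Gng3. The coding ends of 4 of them are shown, with the last 4 codons before the stop, the site of lipid attachment, in capitals; a cysteine codon opens that stretch in all 9, and in Gng2, Gng3, Gng4 and Gng12 it closes on a leucine codon.
Gng2: gagaagaagttcttcTGCGCCATCCTTtaa
Gng3: gagaagaagttcttcTGTGCGCTCCTCtga
Gng4: gagaagaagttcttcTGCACCATCCTCtaa
Gng12: aaggataagaagaccTGCATCATCTTAtag

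Gng3, a neuronal gamma subunit, was the main one per kilobase in every class, from 62.9% of the summed gamma level in Mrgprd cells to 84.4% in Th cells. Its CPM varied little, with class means between 506 CPM in Sst/Nppb cells and 803 CPM in Th cells, and it was called in Sst/Nppb cells only (574, 595, 370 and 487 CPM in Blue, Red, Control and Control1; -0.48 ± 0.13, adjusted p = 0.0117, limma; 4 of 4 mice), a call that needed both mice and was lost in runs 2 to 4. In Mrgprd cells Gng3 passed under 5 of 17 alternatives, among them edgeR on recovered counts (0.32, adjusted p = 0.00168). Its exons overlap those of Bscl2 on the other strand, and the sources used here do not say whether counting used strand. Gng2 had 760, 962 and 1041 CPM in the lowest, median and highest mouse of Mrgprd cells, against 136 to 498 CPM in all other tested mice and classes. By CPM, unlike per kilobase, Gng2 was above Gng3 in Mrgprd cells. The class mean of Gng2 there was 933 CPM, and that of Gng3 was at most 803 CPM in any tested class. Gng2 differed by 1.96 ± 0.14 on the log2 scale (adjusted p = 1.06e-08, limma; 6 of 6 mice) and by between 1.71 and 2.08 over 17 alternatives. Gng2 was lower in Th cells (151 and 136 CPM; -1.73 ± 0.20, adjusted p = 6.47e-06) and in Calca/Tac1 cells (146 to 283 CPM; -0.65 ± 0.14, 0.00267; a call that needed both mice and was lost with means of log values).

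The minor gamma subunits had patterns of their own at low level. Gng12 had no count in the 34 Th cells, which allows a level of up to 2.85 CPM (3 counts over the class) and a share of cells of up to 8.82%; against the mean of the other classes, 36.4 CPM, it was at least 12.8-fold lower (adjusted p = 0.00171, limma). This call needed both mice. Gng12 was higher in Sst/Nppb cells, with 61.6, 43.4, 54.9 and 69.3 CPM in Blue, Red, Control and Control1 (1.497 ± 0.43, adjusted p = 0.0199), a call lost when any 1 of these mice was left out, in runs 2 to 4 (0.88) and with means of log values (0.61). Gng4 had 3 counts in all Mrgprd cells, and the mean of the other classes, 25.9 CPM, was 43.6 times that level (exact Poisson interval 14.9 to 212; adjusted p = 0.0013; a call that needed both mice). It was higher in Sst/Nppb cells (46.6, 42.7, 15.96 and 19.4 CPM in the same order of mice; 1.34 ± 0.44, adjusted p = 0.0426), a call lost under 8 of 16 alternatives, among them leaving out any 1 of these mice. Gng5 was lower in Calca/Tac1 cells (0 to 39.7 CPM; -1.27 ± 0.39, adjusted p = 0.0364; 6 of 6 mice), lost under 6 of 17 alternatives, among them leaving out Blue, Red or Control1.

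Per kilobase, Rgs4 was the regulator of highest level in every class. In CPM, Rgs3 and Rgs17 had higher class means than Rgs4 in Calca/Tac1 cells. Rgs4 and Rgs5, the gene of widest range, are of the R4 family of small RGS proteins, which act on Gi, Go and Gq. Both lie on chromosome 1, 45.7 kb apart and on opposite strands (Rgs5 at 169655501 to 169695813 on the plus strand, Rgs4 at 169741477 to 169747642 on the minus strand, GRCm38). As they are neighbours with different patterns, the 250 bases before each start are shown (RefSeq, GRCm38.p6, 5′ to 3′ in the direction of the gene; Rgs4 chr1:169747643-169747892, minus strand; Rgs5 chr1:169655251-169655500, plus strand). Capitals mark matches on either strand to the CCAAT box, to the TATA box letters TATAAA or to the E-box letters CANNTG.
Rgs4: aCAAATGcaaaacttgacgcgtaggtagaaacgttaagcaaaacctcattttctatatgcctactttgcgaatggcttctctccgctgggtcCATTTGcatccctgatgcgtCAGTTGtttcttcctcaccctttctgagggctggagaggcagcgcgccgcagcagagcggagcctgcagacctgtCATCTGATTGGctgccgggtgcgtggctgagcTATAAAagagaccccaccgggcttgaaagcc
Rgs5: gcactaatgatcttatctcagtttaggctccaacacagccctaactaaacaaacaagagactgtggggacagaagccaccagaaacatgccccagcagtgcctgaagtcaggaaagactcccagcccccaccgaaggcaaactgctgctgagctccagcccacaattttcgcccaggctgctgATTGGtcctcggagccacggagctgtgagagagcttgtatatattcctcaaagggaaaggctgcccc
Both windows hold 1 CCAAT, 57 bases before the start in Rgs4 and 67 in Rgs5; 33.8% of 32851 windows of the same length hold it. TATAAA is found 31 bases before the start of Rgs4 and not in the Rgs5 window (12.4% of windows), and CANNTG 4 times in Rgs4 and 0 times in Rgs5 (66.2% of windows). GGGCGG (32.7%), TGTGGT (14%) and TGACGTCA (1.55%) are in neither. The Rgs5 window also holds TATATAT near its end, which differs from TATAAA and was not searched for or marked. The matches are letters in a window, not tested sites.

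Of the 5 tested classes, Rgs5 was high in Th and Mrgpra3 cells and near 0 in the other 3. It had 633 and 792 CPM in Th cells of Blue and Red, and 414 and 419 CPM in Mrgpra3 cells. In the other tested classes no mouse exceeded 2.34 CPM. By cells, 32 of 34 Th cells and 32 of 44 Mrgpra3 cells had a count, against 4.63% of Mrgprd cells, 0 of 45 Sst/Nppb cells (which allows up to 6.67%) and 1 of 81 Calca/Tac1 cells. It was also found outside the tested classes: the 28 cells that met no gate averaged 239.9 CPM, the 14 cells that met a pair of gates 64.3 CPM, and 5 of 17 Nefh cells had a count. Thinned to 5000 counts per cell, which left out 2 Mrgprd, 1 Mrgpra3 and 1 Sst/Nppb cell, the shares were 91.2% of Th and 53.5% of Mrgpra3 cells, 0.943% of Mrgprd cells and 0 in Sst/Nppb and Calca/Tac1 cells. The log2 difference was 5.48 ± 0.40 in Th cells (adjusted p = 2.25e-08, limma) and 4.54 ± 0.40 in Mrgpra3 cells (2.28e-06), in 2 of 2 mice each. The Mrgpra3 call missed the threshold with 1 mouse left, at an adjusted p of 0.0583 without Blue and 0.0527 without Red, while the Th call held under all 16 alternatives.

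Rgs5 in Mrgpra3 cells was uneven, with a median of 186 CPM, a 10th percentile of 0 and a 90th percentile of 1232 CPM over cells; in Th cells these were 766, 281 and 960 CPM. None of the 44 Mrgpra3 cells had a count of Th, and none of the 34 Th cells had a count of Mrgpra3. Among these are the cells of mice outside the test: 6 of 6 Th cells had a value, with a mean of 613 CPM, and 3 of 8 Mrgpra3 cells, with a mean of 346 CPM. As background, Rgs5 is a known marker of pericytes. The 8 other mural markers summed to 4.29 CPM in Th cells, with 5 of 8 at 0, to 6.76 CPM in Mrgpra3 cells, with 3 of 8 at 0, and to 30.4 CPM in Mrgprd cells. Where Rgs5 was hardly found, Sst/Nppb cells had no count, at least 82.5-fold below the mean of the other classes of 283 CPM, and Calca/Tac1 cells had 1 count, for a ratio of 521 (exact Poisson interval 93.6 to 20592). The lower calls of Rgs5 in Mrgprd, Sst/Nppb and Calca/Tac1 cells (adjusted p = 1.76e-07, 1.91e-07 and 6.77e-08, limma) rest on its level in Th and Mrgpra3 cells, since each class is set against the mean of the others; 2 of 6, 2 of 4 and 4 of 6 mice had that direction. edgeR on recovered counts did not call it lower in Mrgprd or Calca/Tac1 cells (adjusted p = 1 in both).

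**Figure D5:**
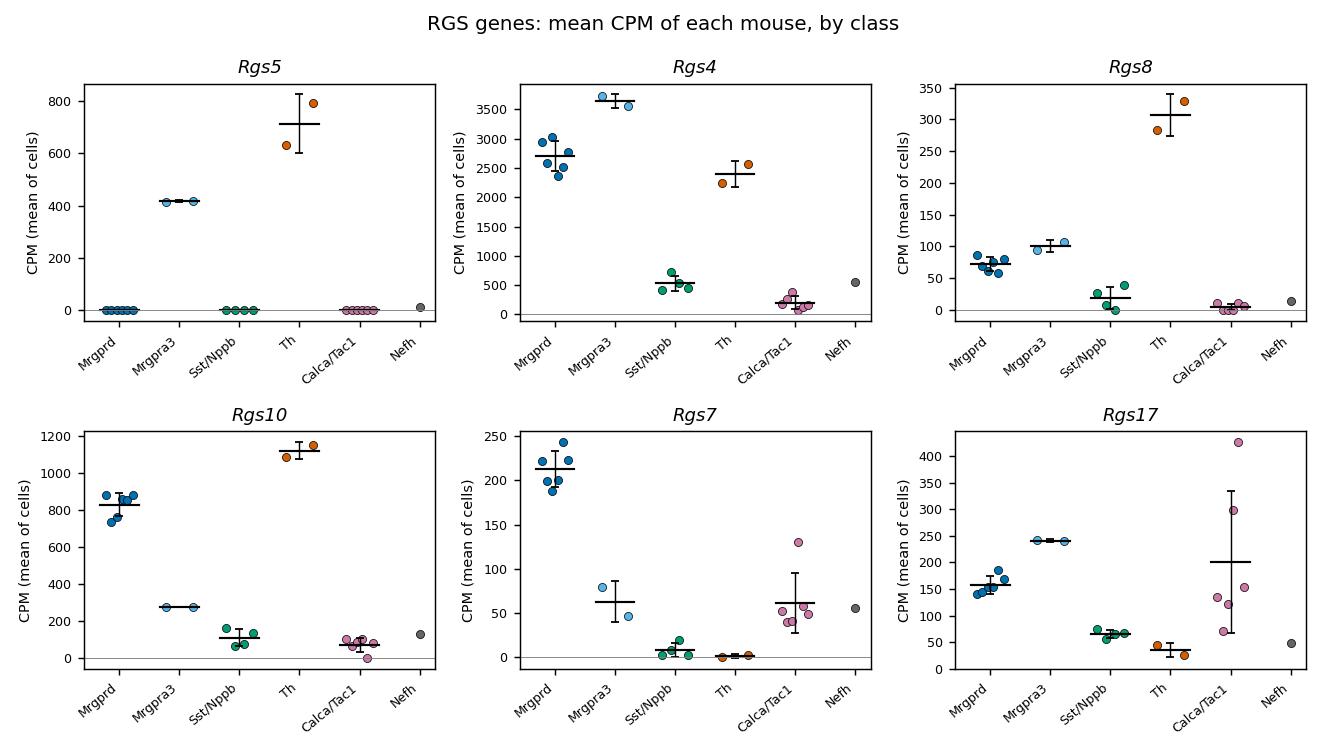
Mean CPM over cells (y axis, linear) of 6 RGS genes in each class (x axis), 1 point per mouse; bars are the mean and SD over mice, and Nefh is a single mouse. Rgs5 is above 400 CPM in Mrgpra3 and Th cells and at most 2.34 CPM in the other tested classes, Rgs4 and Rgs10 are low in Sst/Nppb and Calca/Tac1 cells, and Rgs7 is highest in the 6 Mrgprd mice.

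Rgs4 split the classes differently. It had 3724 and 3565 CPM in Mrgpra3 cells, 2363, 2682 and 3035 CPM in the lowest, median and highest mouse of Mrgprd cells, and 2246 and 2560 CPM in Th cells. Sst/Nppb cells had 412, 449, 714 and 534 CPM in Blue, Red, Control and Control1, and Calca/Tac1 cells 69.5, 174 and 379 CPM in the lowest, median and highest mouse. The Calca/Tac1 values lay below every other tested value and the Mrgpra3 values above. Rgs4 differed by -3.32 ± 0.18 on the log2 scale in Calca/Tac1 cells (adjusted p = 4.09e-10, limma; 6 of 6 mice), with -2.60 in runs 2 to 4, and -1.70 ± 0.19 in Sst/Nppb cells (3.55e-06; 4 of 4 mice). It was 2.09 ± 0.25 in Mrgpra3 cells (6.78e-05), 1.59 ± 0.18 in Mrgprd cells (3.2e-06) and 1.34 ± 0.25 in Th cells (0.00153). The Mrgpra3 and Th calls needed both mice, and the Sst/Nppb value in runs 2 to 4 was -0.62 with an adjusted p of 0.355. Rgs4 alone made up 77.4% of the summed RGS level per kilobase in Mrgpra3 cells and 33.1% in Calca/Tac1 cells, and that sum was 1519 and 193 CPM per kilobase.

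Rgs8, another R4 regulator, was highest in Th cells, with 283 and 330 CPM against 0 to 107.3 CPM in all other tested mice and classes (2.75 ± 0.51, adjusted p = 0.00122, limma). The call needed both mice and was lost at a pseudocount of 1; the 6 Th cells of other mice had a mean of 329 CPM. It was lower in Calca/Tac1 cells (0 to 10.8 CPM; -2.95 ± 0.35, adjusted p = 7.44e-06; 6 of 6 mice; -1.94 in runs 2 to 4, not called) and in Sst/Nppb cells (26.4, 39.6, 7.84 and 0 CPM in Blue, Red, Control and Control1; -1.63 ± 0.39, 0.00622; a call that needed both Blue and Red and was lost at a pseudocount of 1 and in runs 2 to 4). Rgs3 was lower in Th cells, with 70.04 and 51.9 CPM, below the 169 to 428 CPM of all other tested values (-2.10 ± 0.22, adjusted p = 1.7e-06). It was higher in Mrgprd cells (1.009 ± 0.15, 0.000106; 5 of 6 mice) and in Sst/Nppb cells (0.86 ± 0.17, 0.00113; 3 of 4 mice). Its call in Calca/Tac1 cells (0.49 ± 0.15, adjusted p = 0.0386) had the direction of 3 of 6 mice and was lost under 13 of 17 alternatives. These were leaving out any 1 mouse other than Control6, either set of runs (-0.22 in runs 2 to 4), overlapping gates (0.22), at least 5 cells, no mouse block, cells of low glial signal, means of log values and median centring. Runs 2 to 4 gave 0.37 in Mrgprd cells and -0.15 in Sst/Nppb cells, neither of them called, and the Sst/Nppb call was lost without Red. Rgs2, a regulator that prefers Gq, had 3 counts in all Mrgprd cells. The mean of the other classes, 37.1 CPM, was 62.6 times that level (exact Poisson interval 21.4 to 303). The difference was called (adjusted p = 0.00804, limma), a call that needed both Blue and Red and was lost in runs 2 to 4. The mean of 37.1 CPM includes 175 CPM in Sst/Nppb cells of Control, although all Sst/Nppb cells together hold 2 counts of Rgs2. The interval covers counting error in Mrgprd cells only. Mrgpra3 cells had the highest class mean of Rgs2, with 71.1 and 65.5 CPM and a count in 37 of 44 cells, but this difference did not pass (2.77, adjusted p = 0.0954); it passed under 7 of 16 alternatives, among them overlapping gates (0.0302), cells of low glial signal (0.000697), means of log values (3.12e-05), edgeR on recovered counts (7.24e-16) and leaving out Control (0.00131), whose 4 Sst/Nppb cells had 175 CPM.

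Rgs10 and Rgs12 belong to the R12 family, which acts on Gi and Go, and had different patterns. Rgs10 had 1089 and 1153 CPM in Th cells, above all other tested values, and 733, 857 and 882 CPM in the lowest, median and highest mouse of Mrgprd cells. Mrgpra3 cells had 276 and 278 CPM, Sst/Nppb cells 63.3 to 160 CPM and Calca/Tac1 cells 0 to 100.5 CPM. Rgs10 differed by 2.20 ± 0.54 on the log2 scale in Th cells (adjusted p = 0.0128, limma), 2.35 ± 0.38 in Mrgprd cells (0.000204; 6 of 6 mice), -1.74 ± 0.41 in Sst/Nppb cells (0.00616; 4 of 4 mice) and -2.52 ± 0.38 in Calca/Tac1 cells (9.04e-05; 6 of 6 mice). The Th call was lost at a pseudocount of 1 and without the filter, at an adjusted p of 0.158 and 0.0574, and needed both mice. The Sst/Nppb call needed both mice too, and was lost at a pseudocount of 1 (0.0812) and in runs 2 to 4 (0.172). Rgs12 had 86.6, 43.5, 39.8 and 47.4 CPM in Sst/Nppb cells of Blue, Red, Control and Control1 (2.16 ± 0.45, adjusted p = 0.00212; 4 of 4 mice) and 15.6 to 76.1 CPM in Calca/Tac1 cells (1.56 ± 0.41, 0.0132; 5 of 6 mice). In Th cells it had 1 count in 34 cells, and the mean of the other classes, 27.8 CPM, was 29.3 times that level (exact Poisson interval 5.25 to 1155; adjusted p = 0.0321). All 3 calls of Rgs12 needed both mice. The Th call was also lost with overlapping gates (-0.53, adjusted p = 0.89), without the filter (0.0576) and with means of log values (0.0836). Runs 2 to 4 gave 1.24 in Sst/Nppb cells and 0.63 in Calca/Tac1 cells, neither of them called.

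Rgs7, an R7 regulator that pairs with Gnb5, was highest in Mrgprd cells, and Rgs17, an RZ regulator known to act on Gi and Gz, in Mrgpra3 cells of the mice that had them. Rgs7 had 187, 211 and 243 CPM in the lowest, median and highest mouse of Mrgprd cells, above the 0 to 130 CPM of all other tested values (3.03 ± 0.31, adjusted p = 1.42e-06, limma; 6 of 6 mice), and held under 17 of 17 alternatives. Sst/Nppb cells had 2.20, 2.69, 8.12 and 19.4 CPM in Blue, Red, Control and Control1 (-2.06 ± 0.35, adjusted p = 0.000283). Th cells had 1 count in 34 cells, and the mean of the other classes, 86.3 CPM, was 90.8 times that level (exact Poisson interval 16.3 to 3587; adjusted p = 0.000178), and this call was lost without Blue (adjusted p = 0.109). Rgs17 had 243 and 239 CPM in Mrgpra3 cells (1.43 ± 0.33, adjusted p = 0.022) and 43.9 and 25.4 CPM in Th cells, below all other tested values (-1.91 ± 0.33, 0.00065). The Mrgpra3 call needed both mice, the Th call was lost without Red, and both were lost with overlapping gates. Calca/Tac1 cells ranged from 70.4 CPM in Control to 426 CPM in Control6, with a median mouse of 144 CPM, and were not called; the highest values, 298 CPM in Control2 and 426 CPM in Control6, rest on 3 cells each. Rgs19 stayed at 3.16 to 20.9 CPM and was not called.

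Nefh cells, in 1 mouse, are given as levels only. Their 13 cells had 907 CPM of Gnao1, 2868 CPM of Gnas, 270 CPM of Gnaq, 20.7 CPM of Gna14, 546 CPM of Rgs4 and 12.3 CPM of Rgs5. In 4 Nefh cells of 3 other mice Gna14 and Rgs5 were at 0, Gnaq averaged 319 CPM and Rgs4 537 CPM. The glial marker sum in these cells was the highest of all classes, and its part in these levels was not tested.

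The targets of these subunits differed between the classes as well. They came in 8 lists of targets and partners, and the same F test called 25.5% of all genes. Of 6 tested protein kinase A subunits 5 passed the F test, of 5 adenylyl cyclases 4, of 3 phospholipase C beta genes 2, of 9 phosphodiesterases of cyclic AMP 5, of 7 RhoGEFs 3, of 9 other regulators 5, of 4 receptor kinases and arrestins 1, and of the GIRK channels the 1 tested. Calca/Tac1 cells had 3 adenylyl cyclases higher and 0 lower, and 3 kinase A subunits higher and 1 lower, where 7.01% of all genes were higher and 5.31% lower. In Sst/Nppb cells 1 kinase A subunit was higher and 4 lower, and 0 of the other regulators were higher and 4 lower, where 5.48% of all genes were higher and 10.8% lower. In Mrgprd cells 3 RhoGEFs were higher and 0 lower, and 1 phosphodiesterase higher and 3 lower, where 6.78% of all genes were higher and 4.46% lower. Plcb3, a phospholipase C beta gene, had 307 CPM in Mrgprd cells against 167 CPM as the mean of the other classes (1.76 ± 0.21, adjusted p = 6.93e-06, limma; 6 of 6 mice; 0.91 in runs 2 to 4, not called). In Th cells Plcb3 had 2.81 CPM against 243 CPM (-4.90 ± 0.30, 3.36e-09). It was the only called gene of the 3 tested phospholipase C beta genes in either class. The median log2 difference of these 3 genes had the opposite sign, at -0.422 in Mrgprd cells and 1.196 in Th cells. Prkar2b, a regulatory subunit of protein kinase A, had 806 CPM in Mrgprd cells against 245 CPM (3.27 ± 0.19, 4.88e-10), and 2.22 CPM in Sst/Nppb cells against 446 CPM (-5.31 ± 0.21, 2.29e-12). The phosphodiesterase Pde4c had 464 CPM in Sst/Nppb cells against 14.5 CPM (5.47 ± 0.62, 3.52e-06). In Calca/Tac1 cells all 3 called adenylyl cyclases, Adcy2 (41.9 CPM against 17.6), Adcy3 (24.7 against 5.37) and Adcy5 (67.3 against 23.7), were higher, with adjusted p of 0.00456, 0.0261 and 0.0307 (limma; 5, 4 and 6 of 6 mice); Adcy2 was lost under 3 of 17, Adcy3 under 7 of 15 and Adcy5 under 8 of 17 alternatives, all 3 without Blue, those of Adcy2 and Adcy5 without Red, and those of Adcy3 and Adcy5 without Control or Control6. Rap1gap, a regulator of Rap1 that binds Gi-family subunits, had 153 CPM in Th cells against 13.5 CPM (3.37 ± 0.52, 0.000218), and was at 0 in Sst/Nppb cells (adjusted p = 3.49e-05). Rgs7bp, the membrane anchor of R7 regulators, had 732 CPM in Mrgprd cells against 458 CPM (0.69 ± 0.13, 0.000928) and 305 CPM in Calca/Tac1 cells against 565 CPM (-0.96 ± 0.13, 2.85e-05). Kcnj3, a GIRK channel that beta-gamma opens, was at 0 in Th cells against 31.1 CPM (adjusted p = 0.00376). The Th calls of Rap1gap and Kcnj3 needed both mice, and that of Kcnj3 was lost with overlapping gates (-1.55, adjusted p = 0.128). In runs 2 to 4 the Sst/Nppb call of Rap1gap (0.106) and the Calca/Tac1 call of Rgs7bp (0.0852) were lost, and the Mrgprd call of Rgs7bp was lost without Blue (adjusted p = 0.0669).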

How the data were processed

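The authors deposited 1 table of signal per run, with a value per gene and cell; per the submitters' processing notes, STAR 2.7.3a and the build mm10 were used, and the scaling of the signal per cell is one that the sources used here do not give. In 252 of 394 columns nearly all low values came out as whole reads (within 0.1 of a read); in the other 142 the recovered counts are rounded estimates. The 40 genes, the gates and the lists of targets were chosen with earlier results of these data known. The labels list 400 cells; 6 have no column and were not analysed here. Rn45s (7.42% of the signal) and 26 entries that carried dates in place of symbols (0.146%) were left out, and each cell was scaled to CPM. Cells with under 500 genes (23, with at most 377 counts) were left out, and doublets were not called: cells that passed 2 gates stayed out of all classes.

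For each mouse and class with at least 3 cells, the mean CPM over cells was taken (20 values per gene). limma 3.58.1 in R 4.3.3 was fitted to log2(mean CPM + 5), with class and mouse as terms and a trended prior (10 residual degrees of freedom), for genes that averaged 10 CPM or more. A contrast is a class minus the mean of the other 4; the pseudocount makes fitted differences of low genes smaller than the ratio of CPM. A count model was foreseen for counts; the deposited signal is not counts, so limma was used and edgeR is an alternative. The fit was tested on simulated counts with known changes in a single class. Those counts held no mouse or run effect, so the test cannot show how the fit handles such effects. Its outcome is not given here. Mice are the replicates, and the mouse term pairs classes of the same animal. Directions by mouse compare a class with the other classes that the mouse has, and outside run 1 no mouse has tested Mrgpra3 or Th cells. Genes named per contrast are up to 10 called genes of largest difference, plus Gnas, Gnao1, Gnaq, Gnai1, Gnai2, Gnb1 and Gng3; others were named from their values. Target lists name up to 3 called genes of smallest p. Alternatives were another pseudocount, no filter, overlapping gates, at least 5 cells, no mouse term, cells of low glial signal, means of logs, median centring, run 1, runs 2 to 4, each mouse left out, and edgeR 4.0.16 on recovered counts. Counting intervals are exact, at 95%, and cover counting error only. Gene positions and coding ends are from GENCODE vM21 (GRCm38).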

Additional observations from a re-analysis of the deposited data

Results flagged for a closer look

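In 13 of 92 groups of 4 to 6 mice, 1 mouse stood far from the others (chance gives about 1 in 20). In Mrgprd cells of Control1 (8 cells), Gna11 was low at 75.5 CPM (others 106.2 to 123.7), and Gna13 and Rgs12 were high at 226 CPM (93.6 to 122.9) and 30.7 CPM (3.03 to 5.53). In Mrgprd cells Gna14 was low in Control at 266 CPM (335 to 360), and Gng4 was 3.44 CPM in Control6 against at most 0.515 CPM in the others. In Sst/Nppb cells of Control1 (4 cells), Gnas was low at 3141 CPM (4303 to 4456) and Gng10 at 9.69 CPM (55.05 to 60.9). Rgs2 was 175 CPM in Sst/Nppb cells of Control and 0 in the other 3 mice; all Sst/Nppb cells together hold 2 counts of Rgs2, so that mean rests on at most 2 counts. Rgs12 was high in Sst/Nppb cells of Blue at 86.6 CPM (39.8 to 47.4). In Calca/Tac1 cells Gnai3 was high in Control6 at 174 CPM (38.8 to 73.7), and in Control2 Gnas was low at 2812 CPM (3848 to 4142) and Rgs7 high at 130 CPM (39.5 to 57.9), on 3 cells each. Rgs5 was 0.664 CPM in Calca/Tac1 cells of Red and 0 in the others, from 1 count. The causes were not tested.

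Cells outside the comparisons carried these genes too. The 40 genes summed to 9841 CPM on average in the 28 cells that passed no gate, and to 11898 CPM in the 14 cells that passed 2 gates, within the range of 8103 to 16579 CPM over the 6 classes.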

How the results depend on the processing

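All alternatives were planned. The genes called for any difference, 24, became 11 in runs 2 to 4 and 14 to 26 with 1 mouse left out. In Mrgprd cells the 15 calls ranged from 11 to 17 with 1 mouse left out. In Mrgpra3 cells the 5 calls became 15 with at least 5 cells, in run 1 and with edgeR on recovered counts, and 0 to 6 with 1 mouse left out. In Sst/Nppb cells the 15 calls became 1 in runs 2 to 4 and 5 to 18 with 1 mouse left out. In Th cells the 16 calls became 25 with at least 5 cells and in run 1, and 7 to 16 with 1 mouse left out. In Calca/Tac1 cells the 14 calls became 7 in runs 2 to 4 and 6 to 15 with 1 mouse left out. By construction, at least 5 cells and run 1 drop mice with few cells, and runs 2 to 4 hold only 3 classes; other causes were not tested. Without the replicate block (no mouse term) the calls were 23 for any difference and 15, 5, 15, 15 and 16 in Mrgprd, Mrgpra3, Sst/Nppb, Th and Calca/Tac1 cells. The share of all genes called under each alternative is not given here. These counts therefore cannot separate a change in the listed genes from a change in power over all genes.

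Of 78 called differences named in the text, 24 passed under every alternative with a value; 39 did not pass without Blue and 39 without Red. A sign changed for 3 of them, all in runs 2 to 4: Rgs3 in Sst/Nppb cells (-0.15), Rgs3 in Calca/Tac1 cells (-0.22) and Gnaq in Sst/Nppb cells (-0.040). Among values that were not called, signs changed in runs 2 to 4 for Gnai1 in Sst/Nppb cells (0.17) and Gnai2 in Calca/Tac1 cells (-0.20), and with overlapping gates for Gnai1 (-0.13) and Gng3 (0.020) in Mrgpra3 cells. Without the replicate block Gng3 was 0.062 in Mrgpra3 and -0.037 in Calca/Tac1 cells. With 1 mouse left out, Gnai1 in Mrgpra3 cells ranged from -0.0042 to 0.14 and Gng3 in Calca/Tac1 cells from -0.035 to 0.12. Nefh cells gave no value under any setting, as 1 mouse had enough cells. Genes with fewer than about 3 counts in a class cannot be told from 0.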
